A study of Rattus norvegicus with 12 samples.

Results

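Notch signalling was followed through 10 genes of the rat lung: the ligands Dll4, Jag1 and Jag2, the receptors Notch1, Notch3 and Notch4, and the target genes Hey1, Hey2, Heyl and Hes1. They were taken by symbol from a table of 19230 rows, and all 10 were found. 9 have a row of their own, while Jag2 shares a row with its neighbour Nudt14, so that a change there cannot be given to either gene. All 10 passed the filter on low values in every comparison. RNA was sequenced from Sprague-Dawley rats in 4 groups of 3 libraries. The groups are endothelial cells (ECs) of wild-type (WT) rats in normoxia, total lung under the label Ahr-KO at SuHx day 4, total lung of WT rats at SuHx day 4, and total lung of WT rats in normoxia at day 0. SuHx combines Sugen (SU5416, which blocks VEGF receptor signalling) and hypoxia, and it models pulmonary arterial hypertension. No group had SU5416 or hypoxia alone, no group was Ahr-KO in normoxia, and the ECs came from normoxia only. Ahr encodes the aryl hydrocarbon receptor, a ligand-activated transcription factor. The sources used here do not give the deleted part of Ahr, the age of the rats or how the ECs were isolated. The ECs are labelled day 4, while their column names carry a 0.

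Notch is a receptor read by contact between neighbouring cells. A ligand on 1 cell (Delta-like or Jagged) pulls on a receptor of the next, proteases of the ADAM family and then gamma-secretase cut it, and the freed inner domain binds the DNA-binding protein RBPJ and switches on repressors of the Hes and Hey families. In vessels, VEGF raises Dll4 in the leading tip cell of a sprout, Dll4 holds back its neighbours through Notch1, and the same signal marks arterial endothelium. Notch3 is best known as the receptor of smooth muscle cells and pericytes, the mural cells around a vessel.

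Libraries are named by group and by the suffix 0, 1 or 2 of their column. A value is a signal, an estimated read count divided by 1 factor per library, and the libraries stood for 20.04 M to 28.6 M reads. Cyp1a1, a target of the aryl hydrocarbon receptor, was at 3.87 to 5.32 in the Ahr-KO SuHx lungs and at 65459 to 75070.5 in the WT SuHx lungs, while Ahr mRNA itself overlapped between them (1800 to 2523 and 1740 to 3073), so the genotype is given as labelled. In the normoxia lungs Cyp1a1 was at 39.2 to 476 and in the ECs at 1123 to 3003.5, so the WT SuHx lungs lay far above both. The summed signal of 8 cardiac muscle markers reached 25848 in Ahr-KO 2 against 5670 and 7119 in the other Ahr-KO lungs, and 11865 in normoxia 2 against 834 and 1625 in the other normoxia lungs. It was 2625 to 3482 in the WT SuHx lungs, where Myh6 and Nppa were listed at 0. For genes called in the lung, values without normoxia 2 and Ahr-KO 2 are given too.

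Dll4, the endothelial Delta-like ligand that restrains sprouting, had the largest changes of the 10 genes in the lung. Its signal was 1052, 1002 and 715 in the Ahr-KO SuHx lungs, 385, 424 and 344 in the WT SuHx lungs, against 4269, 3278 and 3986 in the normoxia lungs. The 3 lung groups did not overlap: WT SuHx was the lowest, Ahr-KO SuHx lay above it, and both lay far under normoxia. Dll4 fell 9.95-fold in WT SuHx lung against normoxia (log2 fold change -3.31 ± 0.16 SE, limma adjusted p = 1.96e-05). In the Ahr-KO SuHx lungs it was 4.20-fold lower than in normoxia (log2 fold change -2.07 ± 0.16, limma adjusted p = 0.000178). Neither call was lost in any of 18 alternative settings of the fit. Without normoxia 2 and Ahr-KO 2, the log2 fold change was -3.28 in WT SuHx (adjusted p = 0.000158) and -1.86 in Ahr-KO SuHx (0.0019). Between the SuHx groups, Dll4 was 2.37-fold higher in Ahr-KO than in WT (log2 fold change 1.25 ± 0.16, limma adjusted p = 0.0118). That call was lost without WT SuHx 0 (adjusted p = 0.0655), WT SuHx 2 (0.055), Ahr-KO 0 (0.0571) or Ahr-KO 1 (0.0673), with log2 fold changes of 1.14 to 1.25, and it held without normoxia 2 and Ahr-KO 2 (log2 fold change 1.42, adjusted p = 0.00918). These comparisons share libraries, so their values stand side by side and are not independent.

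In whole lung, fewer cells of a type and less RNA per cell cannot be told apart. The summed signal of 13 endothelial markers was 72956 to 94702 in the Ahr-KO SuHx lungs, 83919 to 91255 in the WT SuHx lungs, against 104628 to 110351 in the normoxia lungs. It was thus lower in both SuHx groups than in normoxia, by much less than Dll4. Of the 13 markers, 1 rose and 4 fell in WT SuHx against normoxia (median log2 fold change -0.32, against -0.04 over all 15234 rows tested), 1 rose and 4 fell in Ahr-KO SuHx against normoxia, and 0 were called between Ahr-KO and WT SuHx. Per 1000 units of that sum, Dll4 stood at 9.80 to 11.6 in the Ahr-KO SuHx lungs, 4.10 to 4.65 in the WT SuHx lungs, against 31.3 to 38.7 in the normoxia lungs, so the 3 groups stayed apart in the same order. In the ECs the value was 22.0 to 35.0, overlapping that of the normoxia lungs and not those of the SuHx lungs. This ratio is a description, and no test was run on it. The markers in the sum changed unequally in WT SuHx against normoxia. Clec14a was 2.86-fold, Tek 2.00-fold, Erg 1.58-fold and Flt1 1.54-fold lower, and Emcn was 2.08-fold higher. The ratio is thus not a value per endothelial cell.

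Jag1 did not follow Dll4, and the row of Jag2 cannot be given to that gene alone. Jag1, a ligand of endothelium and smooth muscle, had 775, 592 and 577 in the Ahr-KO SuHx lungs, 755, 936 and 717 in the WT SuHx lungs, against 928, 764 and 581 in the normoxia lungs. The 3 groups overlapped, and no lung comparison was called (log2 fold changes -0.31 to 0.10, adjusted p 0.481 to 0.748). The row of Jag2 and Nudt14 had 2537, 2270.4 and 2465 in the Ahr-KO SuHx lungs, 2190.3, 2559.7 and 2188 in the WT SuHx lungs, against 1715, 1889 and 1751 in the normoxia lungs. Both SuHx groups lay above all normoxia lungs and overlapped each other. The row rose 1.36-fold in Ahr-KO SuHx (log2 fold change 0.44 ± 0.09, adjusted p = 0.0182) and 1.29-fold in WT SuHx against normoxia (0.37 ± 0.09, adjusted p = 0.0309). It did not pass between the SuHx groups (0.07 ± 0.09, adjusted p = 0.756). The rise in WT SuHx lost its call in 9 of 18 settings, among them any normoxia lung left out (adjusted p = 0.109, 0.0508 and 0.0576 without normoxia 0, 1 and 2) and WT SuHx 0 or 1 left out (0.0687 and 0.0661). The rise in Ahr-KO SuHx lost it in 5, with adjusted p = 0.0728 without normoxia 0, 0.0641 without Ahr-KO 0 and 0.0552 without Ahr-KO 2. Without normoxia 2 and Ahr-KO 2 together, neither rise was called (adjusted p = 0.078 in Ahr-KO SuHx and 0.0606 in WT SuHx).

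**Figure D1:**
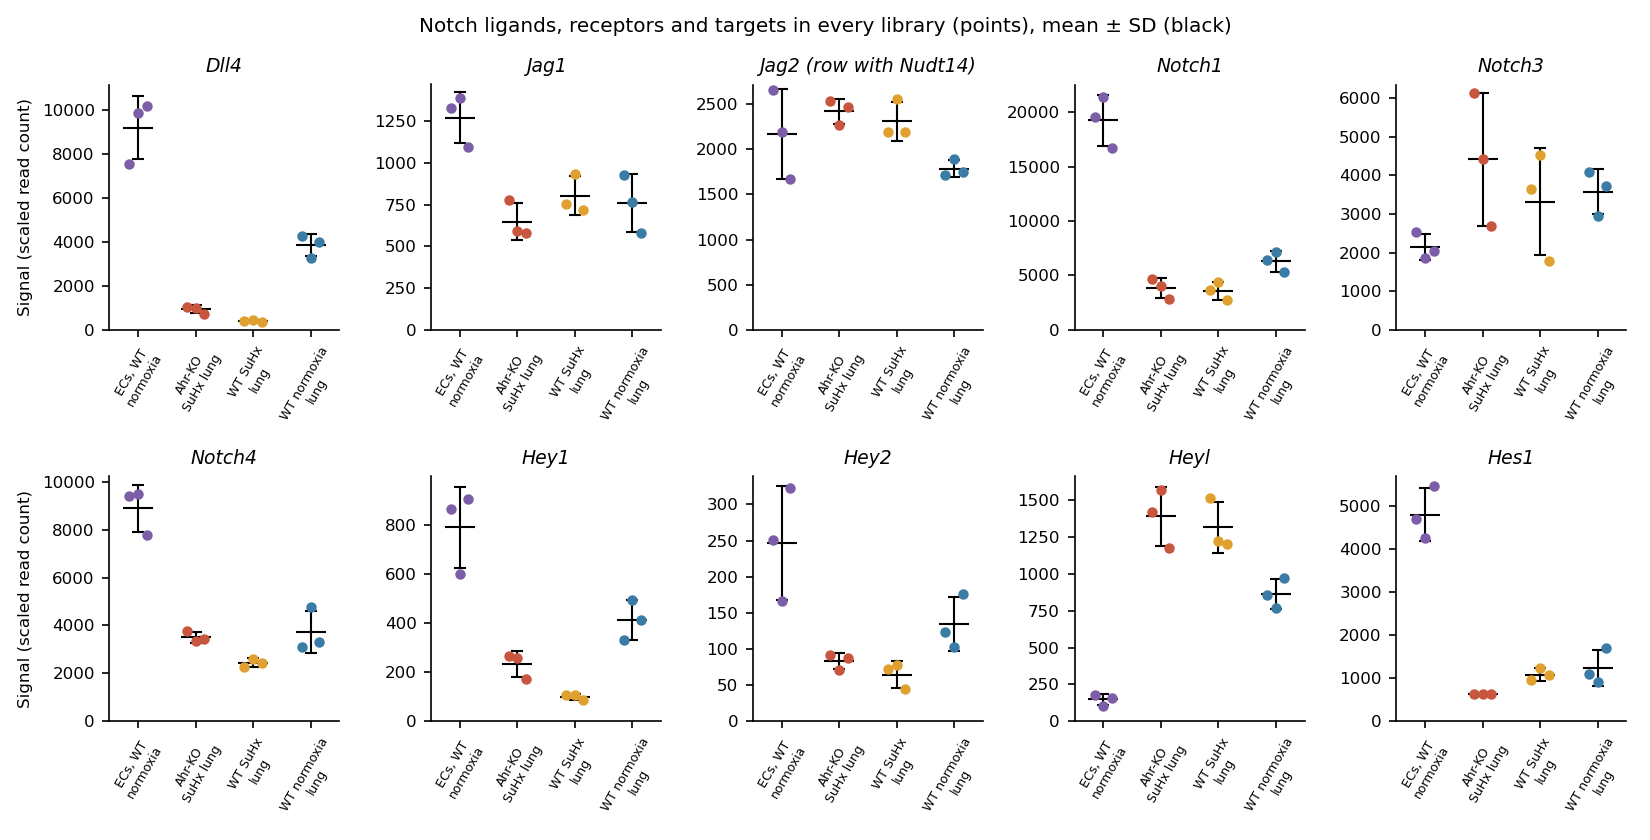
Signal (scaled read count, each panel on its own linear axis from 0) of the 10 Notch genes in each library, with points for libraries and black bars for the mean ± SD of 3. Dll4 and Hey1 are lowest in the WT SuHx lungs (344 to 424 and 86.4 to 106), higher in Ahr-KO SuHx and highest in the ECs, whereas Heyl is highest in both SuHx groups (1176 to 1573) and lowest in the ECs (106 to 181).

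The receptors had smaller log2 fold changes than Dll4. Notch1, the main partner of Dll4 in endothelium, had 4637, 3990.3 and 2846 in the Ahr-KO SuHx lungs, 3671, 4389 and 2706 in the WT SuHx lungs, against 6439, 7177 and 5287 in the normoxia lungs. Both SuHx groups lay under all normoxia lungs and overlapped each other. Notch1 fell 1.78-fold in WT SuHx (log2 fold change -0.83 ± 0.22, limma adjusted p = 0.0363). In Ahr-KO SuHx against normoxia it missed the threshold (-0.74 ± 0.22, adjusted p = 0.0645), and between the SuHx groups the difference was 0.09 ± 0.22 (adjusted p = 0.874). The WT call was lost without normoxia 0 (adjusted p = 0.109), normoxia 1 (0.113), WT SuHx 0 (0.0889), WT SuHx 2 (0.112) or Ahr-KO 1 (0.0576). Without normoxia 2 and Ahr-KO 2 together it held (log2 fold change -0.95, adjusted p = 0.0194). In Ahr-KO SuHx the fall was called when WT SuHx 2 was left out of the shared fit (adjusted p = 0.0428). Notch1 was lowest in library 2 of each lung group. With the column suffix as a block in the limma fit, both falls against normoxia were called (adjusted p = 0.00323 in WT SuHx and 0.00613 in Ahr-KO SuHx). The 2 effects against normoxia share their normoxia lungs, and their difference is the Ahr-KO against WT SuHx comparison, which was not called.

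Notch4, a receptor largely restricted to endothelium, was at 3749, 3336 and 3426 in the Ahr-KO SuHx lungs, 2258, 2616 and 2450.3 in the WT SuHx lungs, against 3117, 4752 and 3322 in the normoxia lungs. The WT SuHx lungs were the lowest and overlapped neither other group, while the Ahr-KO SuHx lungs lay among the normoxia lungs. Notch4 fell in WT SuHx against normoxia (log2 fold change -0.59 ± 0.15, limma adjusted p = 0.0323). It did not differ beyond the spread in Ahr-KO SuHx against normoxia (-0.07 ± 0.15, adjusted p = 0.816), where the sign turned under quantile normalization (0.02) and with libraries scaled to the same total (0.00257). Ahr-KO SuHx was 1.44-fold above WT SuHx without passing the threshold (0.52 ± 0.15, adjusted p = 0.19), which holds for all 18 alternative settings (adjusted p = 0.0519 to 0.449). The fall in WT SuHx was lost without normoxia 1 (adjusted p = 0.052), WT SuHx 0 (0.108), WT SuHx 2 (0.0816) or Ahr-KO 1 (0.053), and it held without normoxia 2 and Ahr-KO 2 together (log2 fold change -0.66, adjusted p = 0.0414). Per 1000 units of the endothelial sum, Notch4 was at 38.5 to 47.0 in the Ahr-KO SuHx lungs, 26.0 to 29.2 in the WT SuHx lungs, against 28.2 to 45.4 in the normoxia lungs.

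Notch3, the mural cell receptor, spread widely within groups. It had 6128, 4419 and 2679.9 in the Ahr-KO SuHx lungs, 3657, 4514 and 1789 in the WT SuHx lungs, against 4072, 2939.6 and 3726 in the normoxia lungs. All groups overlapped, and no lung comparison was called (log2 fold changes -0.20 to 0.43, each ± 0.36, adjusted p 0.612 to 0.737). Without WT SuHx 2 the difference of WT SuHx from normoxia turned to 0.20, also not called.

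**Figure D2:**
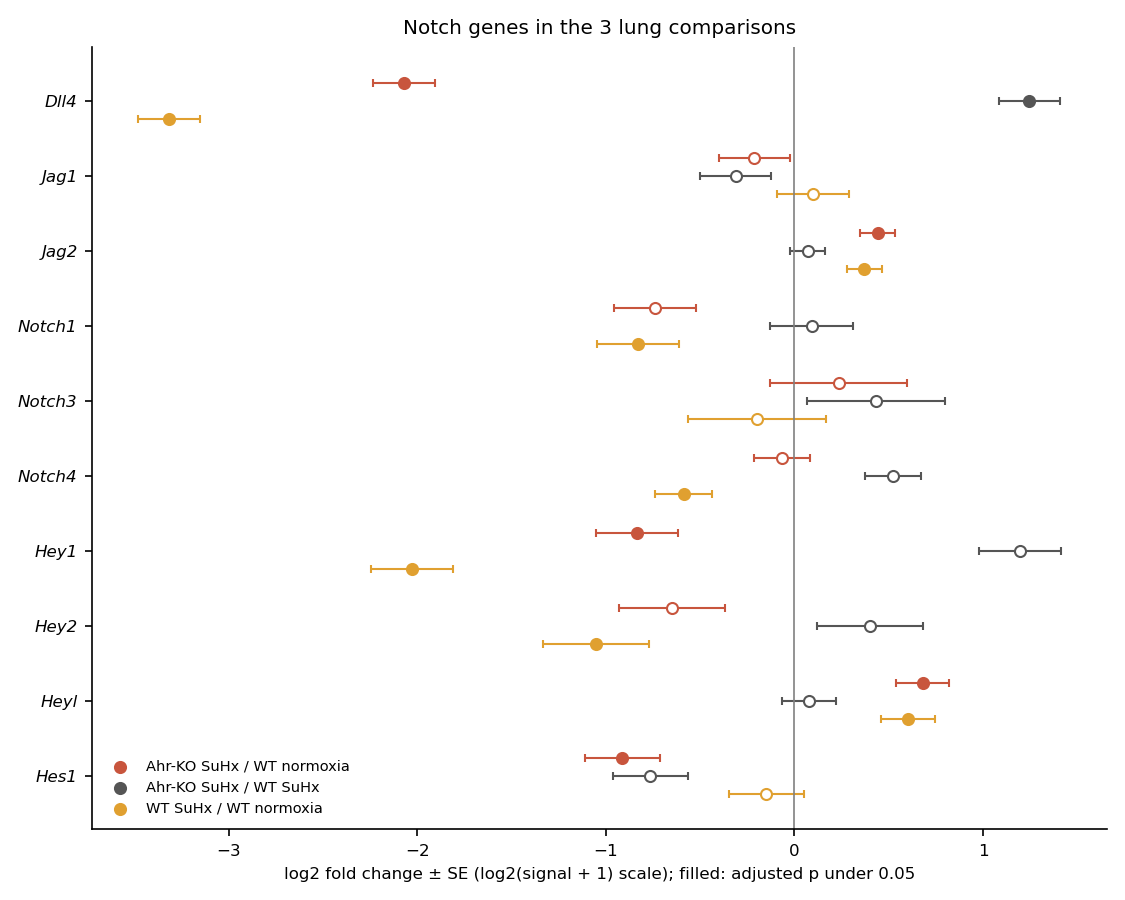
Log2 fold change ± SE (horizontal axis, log2(signal + 1) scale) of each Notch gene in the 3 lung comparisons, filled where limma's adjusted p was under 0.05. Dll4 (-3.31) and Hey1 (-2.03) lie farthest to the left in WT SuHx over WT normoxia, and Dll4 is the filled point of Ahr-KO over WT SuHx (1.25).

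Among the target genes, Hey1 took the same order as Dll4. Hey1, a repressor induced by Notch in endothelium, had 266, 259 and 172 in the Ahr-KO SuHx lungs, 106, 106 and 86.4 in the WT SuHx lungs, against 333, 495 and 412 in the normoxia lungs. The 3 groups did not overlap. Hey1 fell 4.08-fold in WT SuHx against normoxia (-2.03 ± 0.22, limma adjusted p = 0.000678), a call that held in all 18 alternatives. In Ahr-KO SuHx it was 1.78-fold lower than in normoxia (-0.84 ± 0.22, adjusted p = 0.0422), but this call was lost in 13 of 18 settings, with any of the 6 libraries compared left out (adjusted p = 0.0513 to 0.135) and without normoxia 2 and Ahr-KO 2 together (0.136). Ahr-KO SuHx was 2.29-fold above WT SuHx, just short of the threshold (1.20 ± 0.22, adjusted p = 0.0549). That difference passed without Ahr-KO 2 (log2 fold change 1.40, adjusted p = 0.0285) and without normoxia 2 and Ahr-KO 2 (1.40, adjusted p = 0.0436), and its adjusted p was 0.0285 to 0.227 over the 18 settings.

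Hey2, a Hey repressor of arterial endothelium, had the lowest signal of the 10 in the lung, at 92.1, 70.8 and 88.1 in the Ahr-KO SuHx lungs, 71.9, 78.0 and 43.9 in the WT SuHx lungs, against 124, 103 and 176 in the normoxia lungs. Both SuHx groups lay under normoxia and overlapped each other. It fell 2.08-fold in WT SuHx (-1.05 ± 0.28, limma adjusted p = 0.0379), was not called in Ahr-KO SuHx against normoxia (-0.65 ± 0.28, adjusted p = 0.179) and gave 0.40 ± 0.28 between Ahr-KO and WT SuHx (adjusted p = 0.536). In 9 of 18 settings the fall in WT SuHx was no longer called, for instance without normoxia 0 (adjusted p = 0.0964), normoxia 2 (0.0824), WT SuHx 0 (0.0775), WT SuHx 2 (0.108), Ahr-KO 0 (0.0564) or Ahr-KO 1 (0.0557). Without normoxia 2 and Ahr-KO 2 it was also lost (adjusted p = 0.0839).

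Heyl, the Hey gene best known from mural cells, went the other way. It had 1422, 1573 and 1176 in the Ahr-KO SuHx lungs, 1515, 1227 and 1206 in the WT SuHx lungs, against 854, 770.5 and 972 in the normoxia lungs. Every SuHx lung lay above every normoxia lung, and the SuHx groups overlapped. Heyl rose in Ahr-KO SuHx (log2 fold change 0.68 ± 0.14, limma adjusted p = 0.0172) and 1.52-fold in WT SuHx (0.60 ± 0.14, adjusted p = 0.0243), with 0.08 ± 0.14 between them (adjusted p = 0.831, and -0.02 without Ahr-KO 1). The call in Ahr-KO SuHx was lost without normoxia 0 (adjusted p = 0.0603), normoxia 1 (0.061), Ahr-KO 0 (0.0568) or Ahr-KO 1 (0.075), and that in WT SuHx without normoxia 0 (0.0782), normoxia 1 (0.0803) or WT SuHx 0 (0.0898). Both held without normoxia 2 and Ahr-KO 2 (adjusted p = 0.0111 and 0.0143). The summed signal of 11 markers of smooth muscle and pericytes was also higher in both SuHx groups. It was 43818 to 62011 in the Ahr-KO SuHx lungs, 45099 to 62562 in the WT SuHx lungs, against 25813 to 33922 in the normoxia lungs. Of the 11, 4 rose and 1 fell in Ahr-KO SuHx, and 5 rose and 1 fell in WT SuHx, with none at 0 in any group. The contractile genes Acta2, Tagln, Cnn1 and Des rose in both, while the merged row of Fopnl and Myh11 was called in neither. Rgs5, known from pericytes but higher in the ECs than in normoxia lung here (0.85 ± 0.14), fell in both. Of the rest of the list, Higd1b rose in WT SuHx only, and Pdgfrb, Cspg4, Abcc9 and Kcnj8 were called in neither. The part of these markers in the change of Heyl was not tested.

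Hes1, a repressor that many cell types express, had a pattern of its own. It was at 633, 638 and 639 in the Ahr-KO SuHx lungs, 959, 1237 and 1066 in the WT SuHx lungs, against 1101, 918 and 1705 in the normoxia lungs. The Ahr-KO SuHx lungs lay under all other lungs, and WT SuHx overlapped normoxia. Against normoxia, Hes1 was 1.88-fold lower in Ahr-KO SuHx (-0.91 ± 0.20, limma adjusted p = 0.0211) and did not pass in WT SuHx (-0.15 ± 0.20, adjusted p = 0.639), where the sign turned without normoxia 2 (0.11). Ahr-KO SuHx was 1.70-fold below WT SuHx without passing the threshold (-0.76 ± 0.20, adjusted p = 0.158). Left without normoxia 2, the highest of the normoxia lungs, the shared fit called this difference (adjusted p = 0.0337), and it did so with only the 2 SuHx groups fitted (0.0461), while over all 18 settings the adjusted p was 0.0337 to 0.37. The call against normoxia was lost without normoxia 0 (adjusted p = 0.0513), Ahr-KO 0 (0.0596), Ahr-KO 1 (0.0705) or Ahr-KO 2 (0.0598). Without normoxia 2 and Ahr-KO 2 together it held (log2 fold change -0.66, adjusted p = 0.0381), and the difference between Ahr-KO and WT SuHx was not called (-0.77, adjusted p = 0.073). Dll4 and Hey1 thus had a higher mean and Hes1 a lower one in Ahr-KO than in WT SuHx lungs, with Dll4 alone called in the fit of the 9 lung libraries.

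The region before the start site of 3 target genes is shown because RBPJ binds DNA at the letters TGGGAA, and the 3 genes differed in the lung. The sequences are those of RefSeq on the rat GRCr8 assembly, a later build than the rn6 named for the table, and each runs 5′ to 3′ on the strand of its gene over the 250 bases before the annotated start. Capitals mark TGGGAA on the printed strand or its reverse complement TTCCCA. 8 of the 10 genes matched the promoter table, and Dll4 and Hey1 had no entry. Of the matched genes not printed, Notch4 holds 2 matches, both reversed, and Jag1, Jag2, Notch1 and Notch3 hold 0.
Hes1: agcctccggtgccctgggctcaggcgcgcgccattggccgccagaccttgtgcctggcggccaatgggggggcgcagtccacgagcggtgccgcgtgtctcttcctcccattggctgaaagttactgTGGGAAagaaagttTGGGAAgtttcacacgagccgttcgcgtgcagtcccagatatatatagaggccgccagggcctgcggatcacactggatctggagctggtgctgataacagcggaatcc
Hey2: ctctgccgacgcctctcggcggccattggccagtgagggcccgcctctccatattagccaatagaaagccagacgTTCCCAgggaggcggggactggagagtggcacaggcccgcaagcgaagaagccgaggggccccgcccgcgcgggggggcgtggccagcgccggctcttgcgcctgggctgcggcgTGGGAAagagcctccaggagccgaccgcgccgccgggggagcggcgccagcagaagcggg
Heyl: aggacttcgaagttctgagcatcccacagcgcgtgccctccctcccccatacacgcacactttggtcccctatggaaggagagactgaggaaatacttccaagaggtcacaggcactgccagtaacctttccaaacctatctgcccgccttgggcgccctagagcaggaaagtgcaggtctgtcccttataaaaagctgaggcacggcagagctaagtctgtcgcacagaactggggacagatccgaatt
The Hes1 sequence is chr11:84213046-84213295 on the minus strand, that of Hey2 chr1:28640850-28641099 on the plus strand and that of Heyl chr5:140793021-140793270 on the plus strand. Hes1 carries the letters in 2 places, both on the printed strand, whose first bases lie 123 and 109 bases before the start. Hey2 carries them once on the printed strand, at 60 bases, and once reversed, at 175 bases. The longer form GTGGGAA, which contains TGGGAA, stands once in Hes1 and once in Hey2. Heyl has neither form in this window, which says only that these letters are not there. Among 33469 rat promoters of this length, 22.1% hold TGGGAA and 5.27% hold GTGGGAA on either strand, so a match is a description of the sequence and no evidence of binding.

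Taking the 10 genes as a set, 2 rose and 5 fell in WT SuHx against normoxia, where 7.08% and 6.39% of the 15234 rows tested did (13.5% in all). In Ahr-KO SuHx against normoxia 2 rose and 3 fell, where 5.95% and 3.80% of rows did (9.75% in all). Between Ahr-KO and WT SuHx 1 was higher and 0 were lower, where 0.197% and 0.302% of rows were (0.499% in all). The genes called in both SuHx groups against normoxia were Dll4 and Hey1, lower in both, and the Jag2 row and Heyl, higher in both. Notch1, Notch4 and Hey2 were called in WT SuHx and not in Ahr-KO SuHx, and Hes1 in Ahr-KO SuHx and not in WT SuHx, but none of these 4 was called between Ahr-KO and WT SuHx, so a difference between the SuHx groups was not shown for them. The median log2 fold change of the 10 was -0.43 in Ahr-KO SuHx against normoxia, 0.25 in Ahr-KO against WT SuHx and -0.39 in WT SuHx against normoxia, beside -0.03, 0.02 and -0.04 over all rows. Counts of called members depend on single libraries: they ran from 1 to 6 in Ahr-KO SuHx against normoxia, 0 to 2 in Ahr-KO against WT SuHx and 2 to 7 in WT SuHx against normoxia as each library was left out, with 3, 2 and 5 called without normoxia 2 and Ahr-KO 2. With libraries scaled to the same total, the rows called in Ahr-KO SuHx against normoxia were 1012 higher and 382 lower, in place of 906 and 579.

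A wider list of 44 genes of the pathway, from ligands and glycosyltransferases to secretases, co-activators and further targets, was counted beside the 10. Of the 43 tested members, 2 rose and 3 fell in WT SuHx, 3 rose and 1 fell in Ahr-KO SuHx against normoxia, and 1 was higher in Ahr-KO than in WT SuHx, with median log2 fold changes of -0.03, -0.04 and 0.08. Over all rows 13.5%, 9.75% and 0.499% were called, and the medians were -0.04, -0.03 and 0.02, so against normoxia the list's counts and medians were near those of any rows. Dll3 was too low to be tested in the lung. The largest called change was that of Efnb2, the ephrin of arterial endothelium and a target of Dll4-Notch signalling. Its signal was 3102, 3246 and 1941 in the Ahr-KO SuHx lungs, 1228, 1239.5 and 1162 in the WT SuHx lungs, against 5794, 5582 and 7492 in the normoxia lungs. As for Dll4 and Hey1, the 3 groups did not overlap, with WT SuHx the lowest. Efnb2 fell 5.15-fold in WT SuHx (-2.37 ± 0.19, limma adjusted p = 0.000283) and 2.31-fold in Ahr-KO SuHx against normoxia (-1.21 ± 0.19, adjusted p = 0.00435). In Ahr-KO it was 2.23-fold above WT SuHx (1.16 ± 0.19, adjusted p = 0.038), a call that was lost (0 of the wider list called) without normoxia 0, without any of the 3 WT SuHx lungs, and without Ahr-KO 0 or Ahr-KO 1. It was also lost without limma's trend, with only the 2 SuHx groups fitted and with the column suffix as a block. Without normoxia 2 and Ahr-KO 2, 1 member of the wider list was called between these groups. Efnb2 was named for its values, and other targets on the list were called in no lung comparison. These were Hes5, Hes7, the merged row of Hes6 and that of Nrarp and Tor4a. The Nrarp row was lower in Ahr-KO than in WT SuHx without overlap (-0.40 ± 0.14, limma adjusted p = 0.245).

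**Figure D3:**
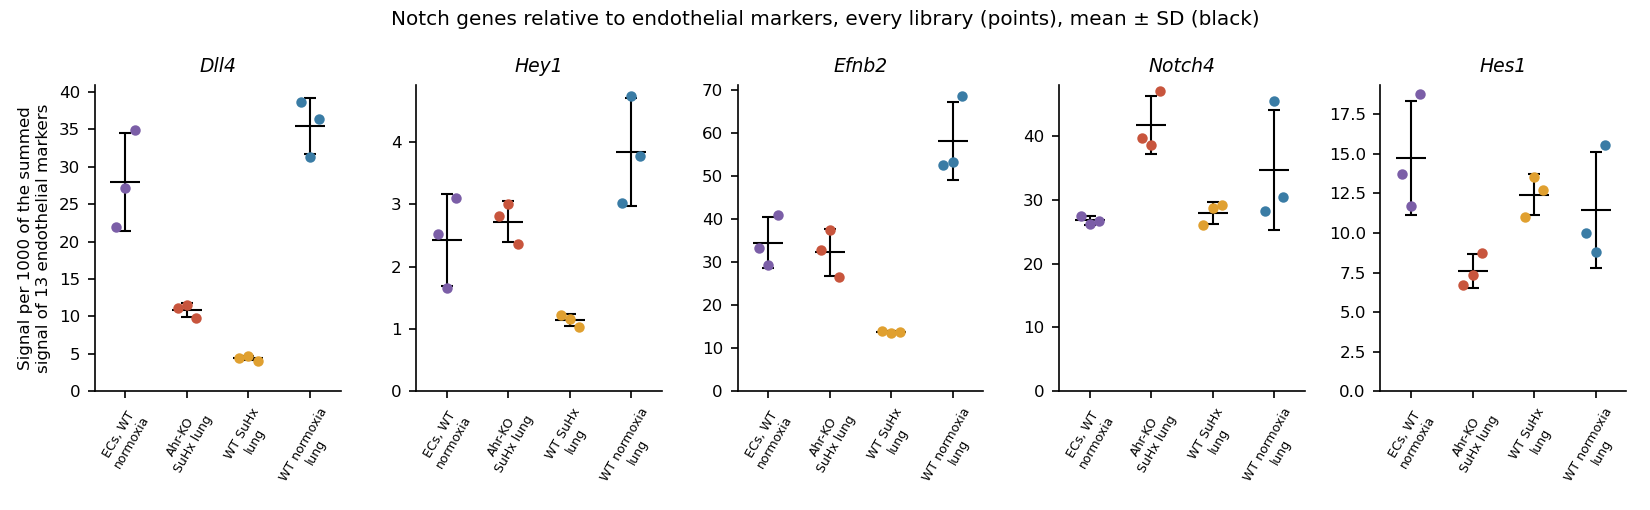
Signal of 5 Notch pathway genes per 1000 units of the summed signal of 13 endothelial markers (vertical axes, linear from 0, each its own), with points for libraries and black bars for the mean ± SD of 3. Dll4, Hey1 and Efnb2 are lowest in the WT SuHx lungs (4.10 to 4.65 for Dll4), also relative to endothelial markers, while Hes1 is lowest in the Ahr-KO SuHx lungs (6.69 to 8.76).

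Other called members of the wider list act on ligands or receptors. Neurl1b, a ubiquitin ligase for Notch ligands, rose 1.66-fold in Ahr-KO SuHx (0.73 ± 0.19, adjusted p = 0.038) and 2.20-fold in WT SuHx against normoxia (1.14 ± 0.19, adjusted p = 0.00508). Mib1, the ubiquitin ligase that lets ligands signal, fell 1.41-fold in WT SuHx (-0.50 ± 0.12, adjusted p = 0.0307). Poglut1, which adds glucose to Notch receptors, rose 1.29-fold in WT SuHx (0.37 ± 0.10, adjusted p = 0.0376). In Ahr-KO SuHx against normoxia Numbl, a relative of the Notch inhibitor Numb, rose 1.55-fold (0.63 ± 0.14, adjusted p = 0.024) and the merged row of Arhgef25 and Dtx3 rose 1.26-fold (0.33 ± 0.09, adjusted p = 0.0456). Rbpj, the DNA-binding partner of all 4 Notch receptors, was higher in Ahr-KO than in WT SuHx without overlap, but was not called (0.20 ± 0.13, limma adjusted p = 0.499). The number of list members called varied from 2 to 9 in WT SuHx and from 1 to 5 in Ahr-KO SuHx against normoxia as single libraries were left out.

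A group of 7 arterial endothelial markers, which holds Efnb2, had a summed signal of 23592 to 24670 in the Ahr-KO SuHx lungs, 16210 to 18456 in the WT SuHx lungs, against 15465 to 21803 in the normoxia lungs. Its members went opposite ways: against normoxia, Efnb2, Gja4 and Sox17 fell in WT SuHx, while Cxcl12 (log2 fold change 0.83 ± 0.15) and Fbln5 (0.95 ± 0.19) rose. Cxcl12 and Fbln5, with mean signals of 6941 and 7366 in the Ahr-KO SuHx lungs, made up most of the sum and were lower in the ECs than in normoxia lung (-0.91 ± 0.20 and -0.82 ± 0.20), so the sum is not a measure of arterial endothelium here. Of the 7, 2 were higher in Ahr-KO than in WT SuHx and 0 lower: Efnb2 and Gja4, a connexin of arterial endothelium. Gja4 had 2466, 2593 and 2729 in the Ahr-KO SuHx lungs, 1464, 1298 and 1313 in the WT SuHx lungs, against 1712, 1598 and 1976 in the normoxia lungs. It was 1.91-fold higher in Ahr-KO than in WT SuHx (0.93 ± 0.10, limma adjusted p = 0.00354), a call not followed through the alternative settings. The markers' part in the difference of Dll4 was not tested. Cardiac marker signal was also higher in every Ahr-KO SuHx lung (5670 and up) than in any WT SuHx lung (up to 3482). Ahr-KO 2, the lung with the most, had the lowest Dll4, Hey1 and Efnb2 of its group and the highest Gja4. Normoxia 2, with the most among the normoxia lungs, also had the highest Gja4 of its group, and the highest Efnb2, Hey2 and Hes1. Its Dll4 and Hey1 lay between those of the other normoxia lungs. The part of cardiac tissue in these values was not tested.

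The 5 single-gene rows most like Dll4 over the 9 lung libraries, among 11386 with a mean signal of at least 50, were Smad6 (Pearson r = 0.991), Sema3g (0.989), Myzap (0.988), Stox1 (0.983) and Eng (0.983). Smad6 is an inhibitor of BMP signalling, Sema3g a secreted semaphorin and Eng a co-receptor of endothelial cells for BMP and TGF-beta ligands. The mean of each was lowest in WT SuHx, as for Smad6 with 1610 in Ahr-KO SuHx, 993 in WT SuHx and 4564 in normoxia lungs. Efnb2 came sixth (r = 0.981, rank 6) and Hey1 at rank 62 (r = 0.941). Hey2 followed at rank 532 (0.850), Notch1 at 687 (0.827) and Notch4 at 2025 (0.682), while Hes1 (0.270), Notch3 (0.227) and Jag1 (-0.03) had little likeness and Heyl (-0.743) and the Jag2 row (-0.790) ran against it. At the other end stood Cyp51 (-0.994) and Dhcr7 (-0.978), enzymes of cholesterol synthesis, with Lgals1 (-0.979) and Wdr12 (-0.977). These values describe 9 libraries of 3 groups that share their treatment and genotype, so the order of the group means weighs on them.

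The ECs were set against normoxia lung to show which of the genes were enriched in the endothelial preparation. 7 of the 10 were higher in the ECs and 2 lower, where 26.1% and 30.1% of the 15186 rows tested were (56.2% in all), so that being called is common in this comparison. Hes1 was the most enriched, at 4699.95, 4256 and 5464 in the ECs against 918 to 1705 in the normoxia lungs (3.99-fold, log2 fold change 1.99 ± 0.22, limma adjusted p = 0.000338). Notch1 had 19568, 21414 and 16742 in the ECs against 5287 to 7177 (3.06-fold, 1.61 ± 0.15, adjusted p = 0.00016). Notch4 had 9400.3, 9494 and 7760.4 in the ECs against 3117 to 4752 (2.41-fold, 1.27 ± 0.17, adjusted p = 0.000811). Dll4 had 7535, 9852 and 10182 in the ECs against 3278 to 4269 (2.38-fold, 1.25 ± 0.15, adjusted p = 0.000479). None of these 4 overlapped between the groups.

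Hey1 was 1.90-fold higher in the ECs (865, 599 and 904, against 333 to 495 in the normoxia lungs, log2 fold change 0.93 ± 0.21, limma adjusted p = 0.0073). Jag1 was 1.70-fold higher (1328, 1389 and 1097, against 581 to 928, 0.76 ± 0.18, adjusted p = 0.00964). Hey2 was 1.81-fold higher with overlap (250.5, 166 and 323, against 103 to 176, 0.85 ± 0.30, adjusted p = 0.0449), and its call was lost in 7 of 13 settings, without normoxia 0 (adjusted p = 0.114), normoxia 1 (0.122), EC 0 (0.113) or EC 2 (0.12). The Jag2 row was not called (2661, 2189 and 1666, against 1715 to 1889, 0.26 ± 0.16, adjusted p = 0.219) but passed without EC 2 (adjusted p = 0.0187). The 2 genes known from mural cells were lower: Heyl at 181, 106 and 157 in the ECs against 770.5 to 972 (5.93-fold, -2.57 ± 0.21, adjusted p = 0.000105), and Notch3 at 2525, 1862 and 2052 against 2939.6 to 4072 (1.67-fold, -0.74 ± 0.16, adjusted p = 0.00611).

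**Figure D4:**
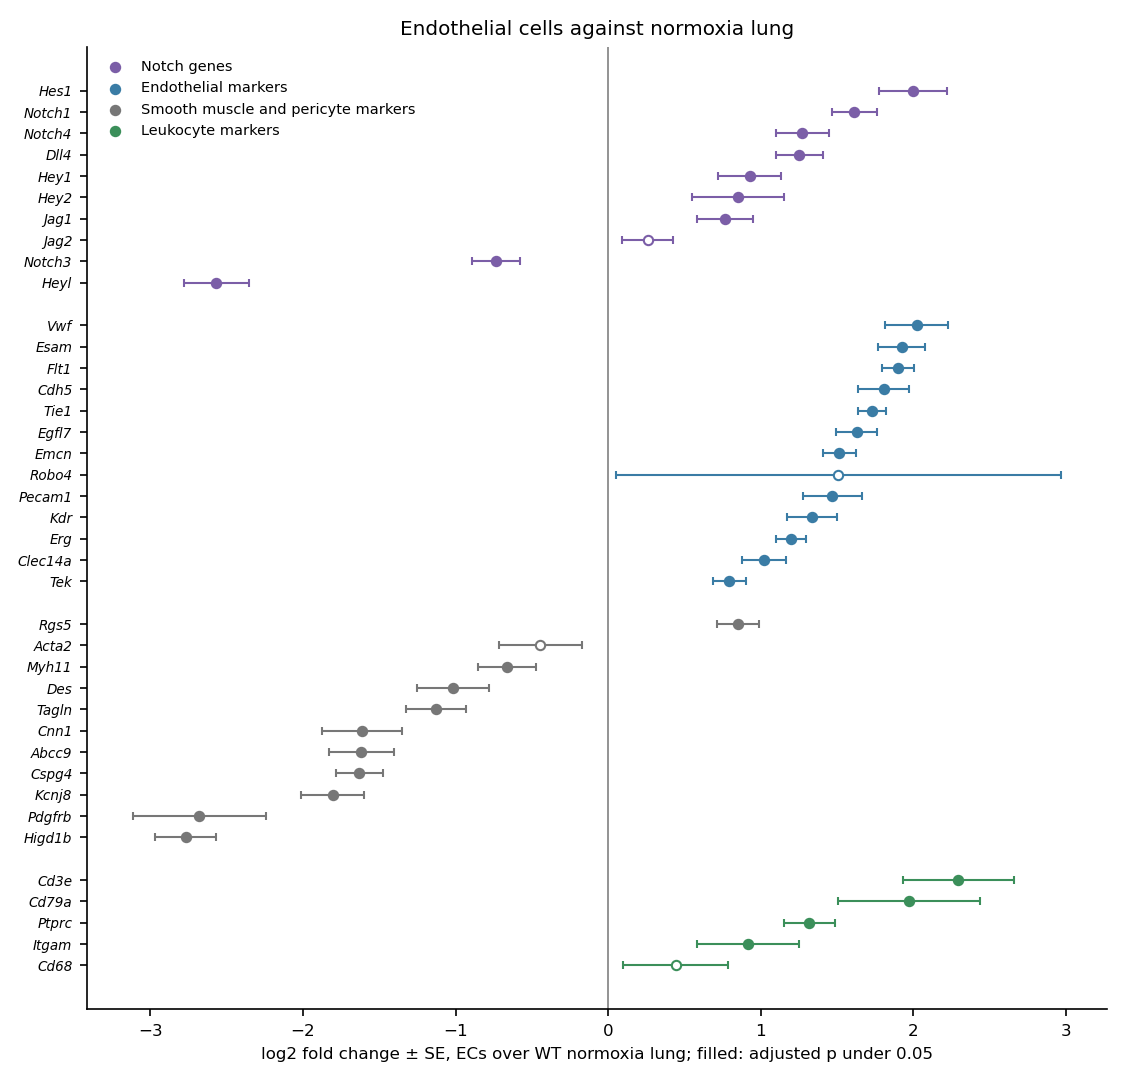
Log2 fold change ± SE (horizontal axis) of ECs over WT normoxia lung for the Notch genes and for markers of endothelium, of smooth muscle and pericytes, and of leukocytes, filled where limma's adjusted p was under 0.05. Notch1, Notch4, Dll4 and Hes1 (1.25 to 1.99) lie in the range of the endothelial markers and also in that of the leukocyte ones (0.44 to 2.29). Heyl (-2.57) lies in the range of the mural markers, and also in that of the airway epithelial markers, which are not drawn.

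The marker lists set the scale of this enrichment. Of 13 endothelial markers, 12 were higher in the ECs (median log2 fold change 1.52, against -0.05 over all rows), with a summed signal of 291044 to 362997 in the ECs and 104628 to 110351 in the normoxia lungs. Cdh5 and Pecam1 were among them (1.81 ± 0.17 and 1.47 ± 0.19). Of the 11 smooth muscle and pericyte markers 9 were lower and Rgs5 was higher, with none at 0 (sums of 19313 to 24282 in the ECs and 25813 to 33922 in the normoxia lungs). Alveolar epithelial markers were at 101518 to 233214 in the ECs and 471179 to 685022 in the normoxia lungs, and airway markers at 19484 to 36519 and 196486 to 211314, so RNA of other lung cells was present in the ECs. Leukocyte genes were enriched with the endothelial ones: 4 of the 5 tested were higher, among them Ptprc (1.32 ± 0.17), the T cell gene Cd3e (2.29 ± 0.36) and the B cell gene Cd79a (1.97 ± 0.47), with sums of 12185 to 17405 in the ECs and 5658 to 6630 in the normoxia lungs and only Marco at 0 in the ECs. Their part in the Notch values of the ECs was not tested.

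In the wider list, 20 of 44 members were higher in the ECs and 5 lower, where 56.2% of all rows were called (26.1% higher and 30.1% lower). The total called was thus near the background, but a larger share was higher and a smaller share lower than among all rows. The median log2 fold change of the list was 0.28, against -0.05 over all rows. Dll1, a Delta-like ligand, was 6.58-fold higher (2480, 2903 and 3995 in the ECs against 359 to 658 in the normoxia lungs, log2 fold change 2.72 ± 0.26, limma adjusted p = 0.00017). The merged row of Arhgef25 and Dtx3 was 2.34-fold lower (-1.23 ± 0.10, adjusted p = 8.90e-05). Dtx2, a ubiquitin ligase that binds Notch, was 2.57-fold higher (1.36 ± 0.13, adjusted p = 0.000174) and Numb, a Notch inhibitor, 1.86-fold (0.89 ± 0.09, adjusted p = 0.000205). Lfng, a glycosyltransferase that tunes receptors towards Delta-like ligands, was 1.98-fold higher (0.99 ± 0.10, adjusted p = 0.000245), and Fbxw7, which marks the cut receptor for breakdown, 1.87-fold (0.90 ± 0.10, adjusted p = 0.000277). With libraries scaled to the same total, the median log2 fold change of all rows was -0.29 in place of -0.05 and the rows called were 2816 higher and 6016 lower, in place of 3969 and 4570. Each of the 10 Notch genes kept its direction under that scaling, with log2 fold changes of 1.76 for Hes1, 1.38 for Notch1, 1.04 for Notch4, 1.02 for Dll4 and -2.80 for Heyl, and Hey2 lost its call (adjusted p = 0.142).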

How the data were processed

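RNA sequencing of 12 libraries (4 groups of 3) was read from 1 deposited table. The authors deposited a signal per gene and library; the values behave as estimated counts of reads, scaled once per library: low values are multiples of 1 step (1 read = 0.745 to 1.25) and 80.9% to 81.7% of non-zero values come within 0.05 of whole reads. Per the submitters' processing notes, rn6 and FastQC were used; the sources used here name no aligner, counter, strand or normalization. Related, overlapping or opposite-strand genes may share reads. Columns were tied to groups by name, not to single samples, and whether replicates are separate animals is not stated, so p-values measure the spread between these samples.

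The test was limma 3.58.1 (R 4.3.3) on log2(signal + 1), two-sided, with 1 mean per group and empirical Bayes variances that follow a trend. Rows whose mean in the fit was below 1 were dropped, p was Benjamini-Hochberg adjusted over all rows tested, and a row was called under 0.05. The 9 lung libraries shared 1 fit, and the ECs were fitted with the normoxia lungs. Fold changes are on the log2(signal + 1) scale. The procedure was tested on simulated data. The simulated libraries were independent and every row had the same setting of spread, so error rates in these data were not measured. The genes, lists and tests were chosen with earlier results of these data known. Named were all 10 genes, up to 6 called genes of the wider list per comparison by adjusted p, and the 5 rows most and least like Dll4. Some genes chosen this way are not reported here. Gja4, Rbpj and the markers with values were named after their values were seen. Alternatives were limma without its trend, quantile or total scaling, dropping the filter or raising it to 5, a pseudocount of 0.1, all 12 libraries or only the groups compared, the column suffix as a block, and libraries left out.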

Additional observations from a re-analysis of the deposited data

How the results depend on the processing

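Members called ran, with 1 library left out, from 2 to 7 in WT SuHx against normoxia, 0 to 2 in Ahr-KO against WT SuHx, 1 to 6 in Ahr-KO SuHx against normoxia and 8 to 9 in ECs. The wider list ran from 2 to 9, 0 to 1, 1 to 5 and 22 to 28. In WT SuHx against normoxia, 4 members were called without limma's trend and 4 with only the 2 groups fitted, and the wider list gave 2 and 3 there, 9 with all 12 libraries and 9 without normoxia 2 and Ahr-KO 2. In Ahr-KO against WT SuHx, 2 members were called with total scaling, 2 with all 12 libraries, 2 with only the 2 groups and 2 without normoxia 2 and Ahr-KO 2, and the wider list gave 0 without the trend and 0 with only the 2 groups. In Ahr-KO SuHx against normoxia, 3 members were called without normoxia 2 and Ahr-KO 2, and the wider list gave 2 without the trend and 2 with only the 2 groups. Over all rows, the main calls of 2052, 76, 1485 and 8539 ran from 862 to 3385 in WT SuHx against normoxia, 32 to 126 in Ahr-KO against WT SuHx, 721 to 2171 in Ahr-KO SuHx against normoxia and 7239 to 8832 in ECs over all settings. The cause was not tested.

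Signs that turned were all of differences not called. With 1 library left out, the log2 fold change in WT SuHx against normoxia ran from -0.341 to 0.105 for Hes1, -0.0788 to 0.258 for Jag1 and -0.471 to 0.196 for Notch3, and without normoxia 2 and Ahr-KO 2 it was 0.105 for Hes1 and -0.0788 for Jag1. In Ahr-KO SuHx against normoxia it ran from -0.0434 to 0.553 for Notch3 and -0.183 to 0.121 for Notch4, which gave 0.0198 with quantile normalization and 0.00257 with total scaling. In Ahr-KO against WT SuHx it ran from -0.0174 to 0.192 for Heyl and -0.0989 to 0.289 for Notch1.

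Same-suffix libraries of different groups did not all deviate together (r of -0.0402 to 0.216, median 0.0474, over 18 pairs, against a median of -0.0131 for unlike suffixes). Among the lungs, however, those of suffix 2 did, with r of 0.0934, 0.196 and 0.216. Pairs of a suffix 2 lung with a lung of suffix 0 or 1 were mostly negative, down to -0.2. No label says that the suffix marks a shared animal or batch, so it was not taken as a pairing in the main fit, which leaves this shared deviation in the spread. As a replicate block, which is not among the 18 or 13 settings counted per gene, it left the calls of members at 7, 1 and 9 in WT SuHx against normoxia, Ahr-KO against WT SuHx and ECs, gave 6 in Ahr-KO SuHx against normoxia (Notch1 added, adjusted p = 0.00613), and gave 12, 0 and 8 of the wider list in the lung comparisons, in the order WT SuHx against normoxia, Ahr-KO against WT SuHx and Ahr-KO SuHx against normoxia. The block gave 3385, 82, 2171 and 8559 calls over all rows, in WT SuHx against normoxia, Ahr-KO against WT SuHx, Ahr-KO SuHx against normoxia and ECs, against 2052, 76, 1485 and 8539 without it. Depth limits Hey2 most, at 59 to 259 reads per library.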
